A study of Mus musculus with 4 samples.

Results

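The very long genes of the mouse genome were examined in Hi-C maps of embryonic stem cells. They were defined as the autosomal protein-coding genes whose annotated body is longer than 500 kb in the mm9 assembly, and 188 of 21418 autosomal protein-coding genes met this rule. The choice used gene length alone and no contact value. Their bodies had a median length of 728 kb and ranged from 502 to 4435 kb, 48 of them were over 1 Mb, and exons covered a median of 0.997% of the body (median of all coding genes 18.7%). At a bin size of 40 kb, a body held from 11 to 110 whole bins, with a median of 17.

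Hi-C counts pairs of DNA fragments that were ligated to each other because they lay close together in the nucleus, here after digestion with HindIII. Maps were made from male mouse embryonic stem cells (mESCs) of 2 genotypes, WT and Firre KO, the latter carrying a deletion of the X-linked locus of the long non-coding RNA Firre. Each genotype had 2 libraries, which the study calls technical duplicates, and these were pooled into 1 deposited matrix, so that n = 1 matrix for each genotype and no difference between the matrices could be tested. The WT cells were the N3 line in 2i medium, whereas the Firre KO cells were grown in 2i medium on irradiated feeder fibroblasts that were removed by plating before fixation, so genotype and culture cannot be told apart. The WT matrix held 65611035 read pairs, 16.1% of them between chromosomes, and the matrix labelled Firre KO held 46635652, 35.6% of them between chromosomes. The bin that lies wholly inside Firre (mm9 chrX:47920001-47960000) still held 1144 X chromosome read pairs in the matrix labelled Firre KO against 1550 in WT, which is 24.5 and 23.6 per 1000000 read pairs of the whole matrix. The interval was therefore not depleted in that map, which is called the KO-labelled map below. The counting intervals of contact values cover the counting of read pairs only. Intervals of medians reflect the spread across genes or stretches, which are not replicates. PCR duplicates or other library effects are in neither kind.

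Genes of this length are mostly intron, and many of them act in neurons, where they encode adhesion molecules, guidance receptors, ion channels and their scaffolds. A smaller set has roles in all cells, such as the tumour suppressor genes Fhit and Wwox and the ubiquitin ligase gene Park2. Several, among them Fhit, Wwox, Macrod2, Dlg2 and Immp2l, overlap common fragile sites, which are regions that break when DNA replication is slowed. In Hi-C maps a chromosome is divided into an A compartment, rich in active genes, and a B compartment, poor in them, and on a finer scale into topologically associating domains (TADs), separated by boundaries that contacts cross less often.

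Not every record was a conventional long gene. Gm20388 (4435 kb) rests on 1 transcript that spans 72 other coding genes, the 3009 kb body of Fgfr2, a fibroblast growth factor receptor gene, rests on 1 of 29 transcripts and spans 31 other coding genes, and Arfip1 (1391 kb) spans 5. For 7 genes no single transcript exceeded 500 kb. Another coding gene overlapped the body of 51 of the 188 genes (27.1%), and no 2 long genes overlapped each other. The bodies had a median GC content of 39.99% (autosomal bins 41.4%) and 13.4 HindIII sites per 40 kb (autosomal bins 13).

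The starts of these genes are where a TAD boundary could separate them from the upstream sequence, so 2 promoters are shown, those of Cntnap2 and Macrod2, the longest genes with a TAD boundary within 1 bin of the start in both matrices. Each sequence is the 250 bases before the annotated 5′ end, read from mm9 on the strand of the gene, with CG dinucleotides, the sites of DNA methylation, in capitals. CG reads the same on both strands. At least 10 CG in this window were found for 110 of 188 long genes (58.5%) and for 47.6% of all autosomal coding genes. The Macrod2 window (chr2:140220795-140221044, plus strand) had 18 CG and the Cntnap2 window (chr6:45009810-45010059, plus strand) 13.
Cntnap2: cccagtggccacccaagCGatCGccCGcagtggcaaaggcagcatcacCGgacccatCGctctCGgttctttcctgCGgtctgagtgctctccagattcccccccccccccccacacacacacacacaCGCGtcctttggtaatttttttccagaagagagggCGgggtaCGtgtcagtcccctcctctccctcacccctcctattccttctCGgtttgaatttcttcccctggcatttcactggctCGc
Macrod2: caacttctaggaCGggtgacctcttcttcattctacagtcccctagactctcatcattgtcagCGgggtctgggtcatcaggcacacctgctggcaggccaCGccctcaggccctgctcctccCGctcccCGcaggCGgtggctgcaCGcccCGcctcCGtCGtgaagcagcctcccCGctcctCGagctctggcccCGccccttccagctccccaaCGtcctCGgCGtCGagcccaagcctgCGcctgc

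First, contacts within the gene bodies were compared with those of intergenic sequence. Over these distances the bodies were close to stretches without a coding gene. The contact index was the log2 ratio of observed to expected contacts between bins 80 to 400 kb apart inside the body, where the expected value averages all bin pairs of that chromosome at an equal separation, so that 0 is the chromosome mean. In WT the median index of the long genes was 0.04 (n = 186, 25th to 75th percentile −0.07 to 0.17) against 0.06 in 634 intergenic stretches of at least 11 bins. The medians of the KO-labelled map were 0.14 in 185 genes and 0.15 in 633 stretches. Both kinds of sequence lay above fixed windows of 11 bins tiled along the autosomes, whose median was −0.03 in WT and −0.04 in the KO-labelled map. Immp2l and Rasgrf2 had too few bins with contact values for an index in either matrix, and Skint5 in the KO-labelled map. At least 80% of the bins were required.

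The median index was lower in the longer classes of genes and of stretches, although across single genes it went only weakly with length (WT Pearson r = −0.12, Spearman rho = −0.24). Genes were classed by annotated length and stretches by their whole bins. Since genes were measured over the whole bins inside, the spans measured within a class were not matched exactly. In WT the genes of 500 to 750 kb had a median index of 0.12 (n = 98) and intergenic stretches of that length 0.12 (n = 197). Genes above 1 Mb had −0.01 (n = 47) and stretches above 1 Mb −0.01 (n = 221), where the KO-labelled map gave 0.07 and 0.003. The largest gap in WT was that of the genes of 750 to 1000 kb, 0.01 (n = 41) against 0.09 in 135 stretches in WT, and 0.14 against 0.21 in the KO-labelled map. Over all separations inside the body, genes were set against stretch windows of the same number of bins, cut from the centre of each stretch. By this measure 101 of 185 genes (54.6%) lay above the median of the stretches in WT and 97 of 184 (52.7%) in the KO-labelled map. A gene body runs from edge to edge, whereas such a window can lie away from the edges of its stretch. When the read pairs were taken before correction for coverage, the median index of the long genes exceeded that of the stretches by 0.51 in WT and 0.53 in the KO-labelled map. When bins with a gene of any type were left out of the stretches, it was 0.09 higher in the KO-labelled map.

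**Figure D1:**
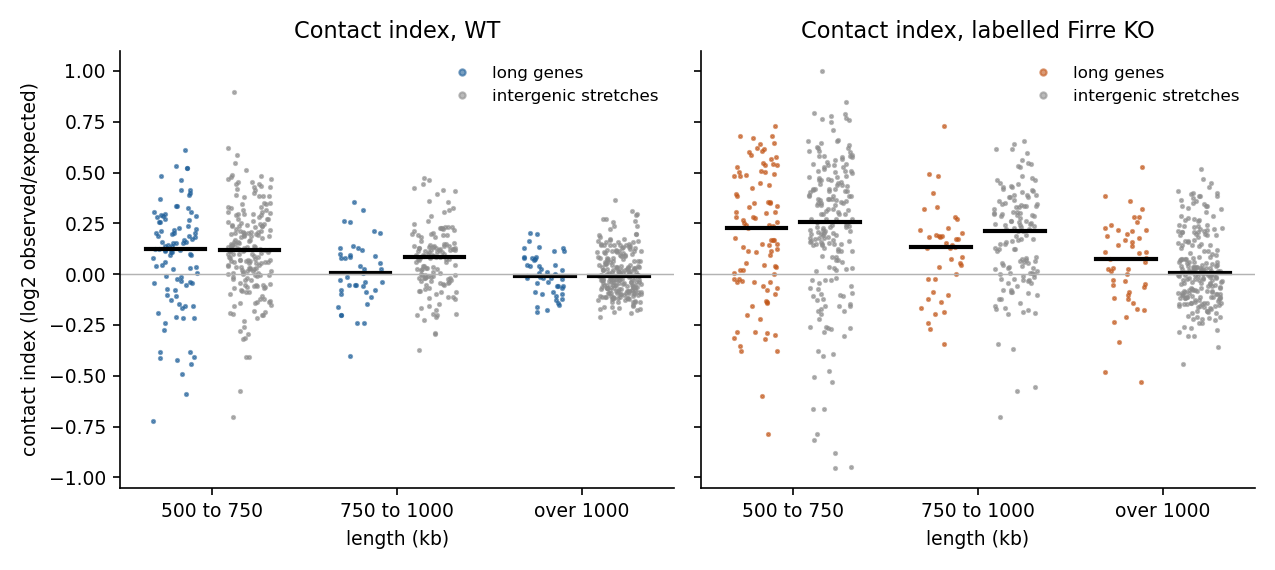
Contact index (log2 observed over expected at 80 to 400 kb) of each long gene, in colour, and of each intergenic stretch, in grey, by length class, in the WT matrix and in the KO-labelled map. Horizontal bars are medians, which fall from 0.12 to −0.01 with length for genes and stretches alike in WT.

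The averaged maps, in which every body is stretched to the same length, had a lower mean in genes than in stretches, without matching for length. The ratio of observed to expected contacts rose from the diagonal toward the corner that joins the start and the end. This corner was brighter for intergenic stretches than for genes. The mean observed over expected value inside the body was 1.07 for genes and 1.14 for stretches in WT, and 1.17 and 1.27 in the KO-labelled map. Contacts of the body with the flank upstream of the start were at 1.08 in WT and 1.20 in the KO-labelled map, so the mean inside the body did not exceed that across its start. At matched separations of 80 to 400 kb, however, the index inside exceeded the index of contacts that cross the start by a median of 0.16 in WT and 0.25 in the KO-labelled map, and of contacts that cross the end by 0.13 and 0.12.

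**Figure D2:**
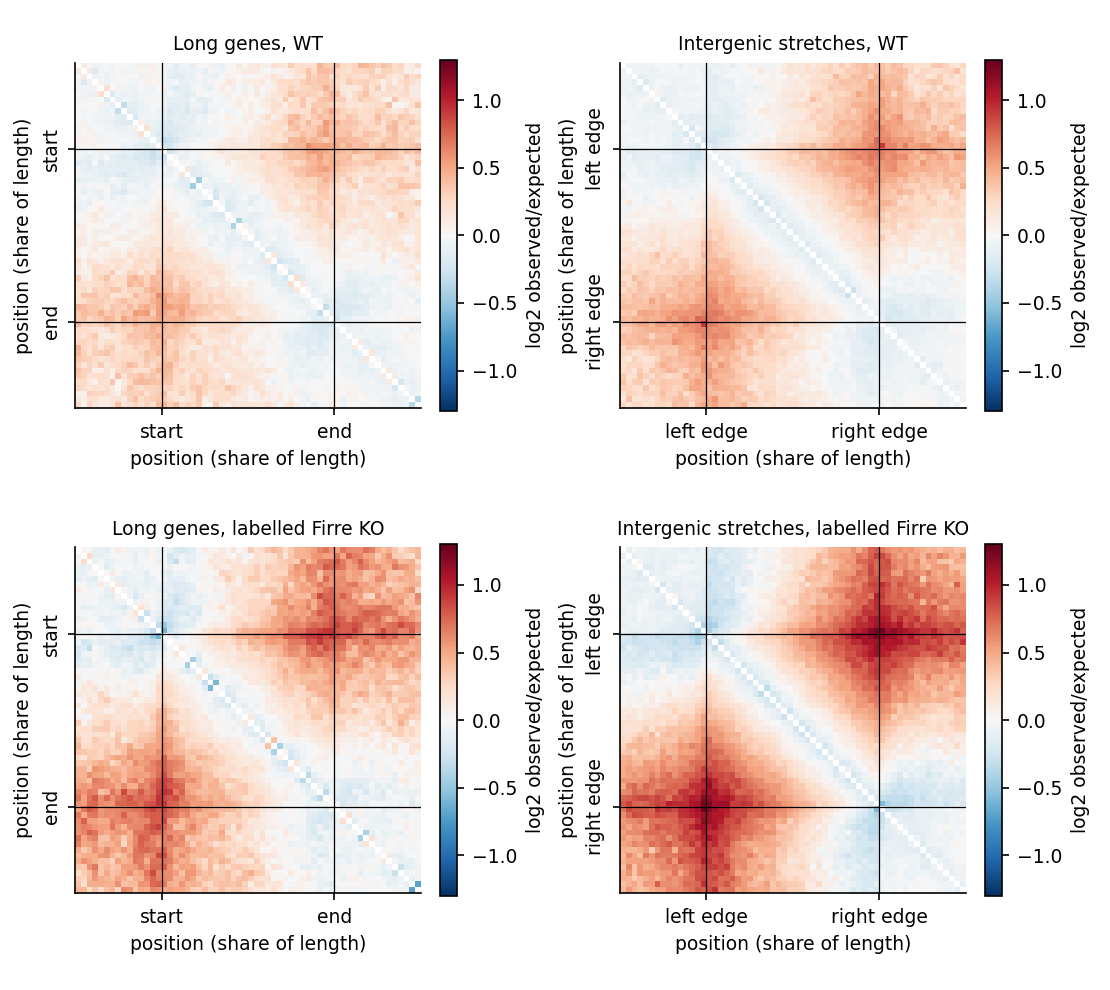
Mean of observed over expected contacts (log2 colour scale) of 188 long genes, turned so that transcription runs from the upper left to the lower right, and of 664 intergenic stretches, each rescaled to one length with flanks on both sides. Black lines mark start and end, and the corner where they meet is stronger in both matrices for the stretches, which are not matched to the genes in length.

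The contact between the start and the end of a gene, averaged over a square of 3 by 3 bins, was above the expected value for most genes and below that of the stretches. In WT the median was 1.28 times the expected value in genes (n = 188) and 1.42 in stretches (n = 634). The KO-labelled map gave 1.43 and 1.93. The stretches were longer than the genes (median 800 against 728 kb), so both were also set side by side within classes of length. At 500 to 750 kb, the class of most long genes, it was 1.25 against 1.29 in WT and 1.35 against 1.57 in the KO-labelled map. Above 1 Mb it was 1.36 against 1.63 and 1.91 against 2.41. The 95% intervals of the medians of genes and stretches overlapped in each class and map. Hpse2, a heparanase-family gene (599 kb, chr19:42863437-43462801), had the highest start-to-end contact in WT among genes with an index, 3.76 times the expected value from 341 read pairs. In the KO-labelled map it had 4.95 times from 269 read pairs, and other long genes reached up to 6.07 times. At the largest genes few read pairs stand behind this value, such as 6 and 3 for Ptprd, so single values there carry little.

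The highest and lowest indices in WT belonged to genes of nearly equal length. Lrba, which encodes a vesicle trafficking protein (558 kb, chr3:86028602-86586615), had the highest, 0.61 in WT (95% counting interval 0.50 to 0.74) and 0.64 in the KO-labelled map (0.47 to 0.82). Hpse2 followed with 0.53 and 0.73, and Cacna1c, the pore-forming subunit of the L-type calcium channel Cav1.2 (604 kb, chr6:118542314-119146249), with 0.52 and 0.65. Kcnma1, the gene of the large-conductance calcium-activated potassium channel (505 kb, chr14:24117983-24622526), had the lowest, −0.72 in WT (−0.85 to −0.59) and −0.79 in the KO-labelled map (−0.95 to −0.62). Mctp1, a calcium-binding membrane protein gene, had −0.59 and −0.60, and Nbea, the gene of the neuronal trafficking protein neurobeachin, −0.49 and −0.28. The 3 genes at the top had no TAD boundary inside in either matrix, and the 3 at the bottom each had 1 inside in both.

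The highest index of the KO-labelled map was that of Camta1, a transcription factor gene (802 kb), with 0.73 against 0.35 in WT. The 6 genes at the ends of the WT ranking all belong to the class of 500 to 750 kb. A boundary is a minimum of crossing contacts, so a lower index in bodies that hold one is part of how it is called, and the values that follow describe its size only. In this class, these 6 genes included, the 65 without a WT boundary inside had a median index of 0.19 in WT and the 33 with a boundary −0.05. In the KO-labelled map, whose index goes with that of WT across genes, the medians of the same groups were 0.30 and −0.02. Their start-to-end contact was 1.43 and 0.88 times the expected value in WT and 1.72 and 0.99 in the KO-labelled map.

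The 10 longest genes had indices from −0.15 to 0.13 in WT and from −0.24 to 0.26 in the KO-labelled map. Gm20388 had an index of 0.07 in WT and 0.26 in the KO-labelled map, and Fgfr2 −0.02 and 0.08. Ptprd, a receptor tyrosine phosphatase that organises synapses (2271 kb, chr4:75587142-77857865), had −0.15 and −0.24. Cntnap2, a neurexin-related adhesion molecule of axons (2241 kb, chr6:45010060-47251368), had −0.10 and −0.03, and Lrp1b, an endocytic receptor (2058 kb), −0.06 and −0.17. Macrod2, which removes ADP-ribose from proteins (1998 kb, chr2:140221045-142218702), had 0.13 and 0.03. Dlg2, a synaptic scaffold (1945 kb), had −0.01 and 0.03, Csmd1, a complement regulator (1643 kb), −0.02 and 0.07, the synaptic adhesion gene Nrxn3 (1612 kb) −0.02 and −0.05, and Fhit (1612 kb) −0.07 and 0.10. Over all separations inside the body, Ptprd and Macrod2 lay further apart. Ptprd had a log2 ratio of −0.38, below each of 44 stretch windows of its length, with a median of 0.46, whereas Macrod2 had 0.77, above 95.1% of 61 such windows.

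**Figure D3:**
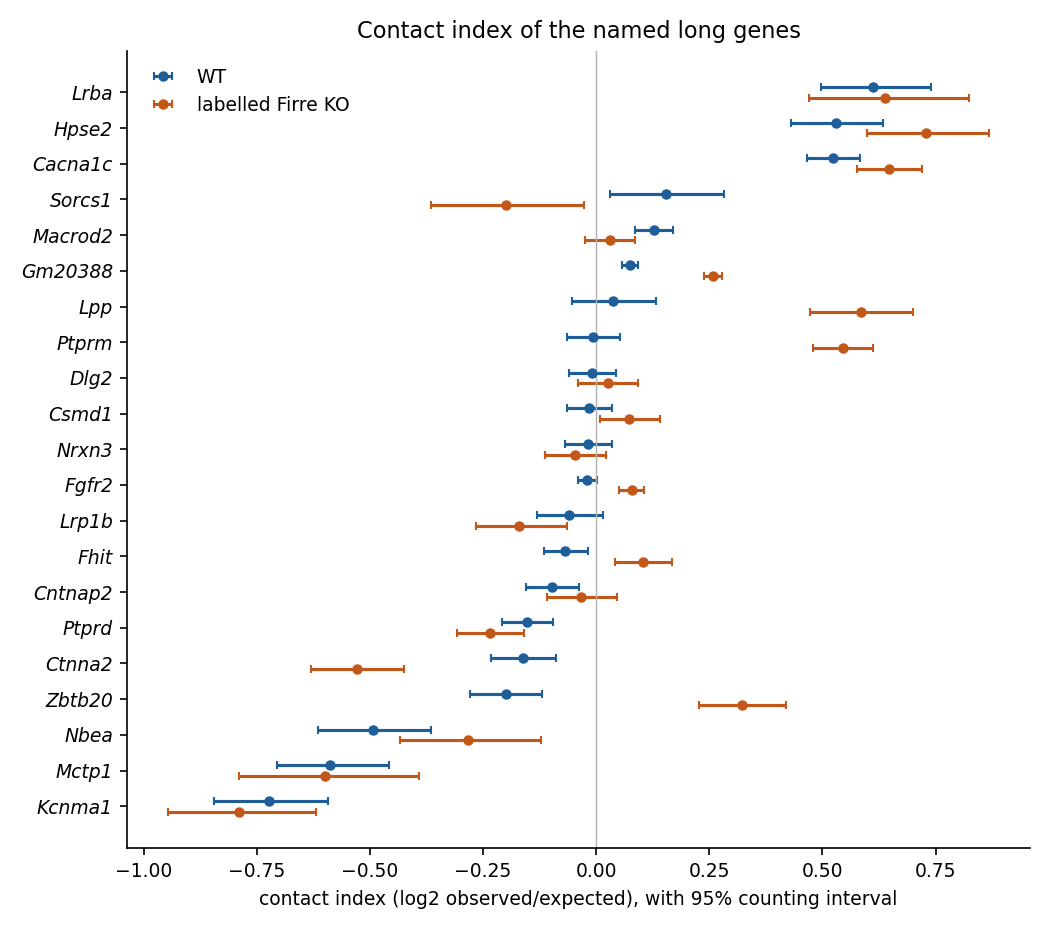
Contact index (log2 observed over expected, 80 to 400 kb) of the 10 longest genes and of others with extreme indices or differences, in WT and in the KO-labelled map, with 95% counting intervals. Lrba, Hpse2 and Cacna1c lie above 0.50 and Kcnma1 and Mctp1 below −0.50 in both matrices.

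By role, the adhesion and guidance genes had the lowest median index of the lists, which were not matched for length. The 42 long genes of this list had a median length of 998 kb, a median index of −0.03 in WT and −0.01 in the KO-labelled map, and 2 of them (Cdh13 and Csmd2) lay in the A compartment in WT. The 21 ion channel and receptor genes had medians of 0.09 and 0.12, with Cacna1c and Dpp6, a potassium channel subunit, in A. The 18 genes of broad cellular roles had medians of 0.04 and 0.10, and 7 of them lay in A in WT, among them Cdkal1, Exoc4, Immp2l, Magi1, Pard3 and Vps13b. The 10 transcription and RNA-binding factors had 0.10 and 0.18, with Auts2, Rora and Sox5 in A. The 15 common fragile site genes, several of which stand on the other lists too, had 0.02 and 0.07. The 95 genes on no list had a median of 0.09 in WT and 0.19 in the KO-labelled map. Median lengths were 699 kb for channels and receptors, 954 kb for broad roles and 670 kb for transcription and RNA-binding factors. They were 1306 kb for fragile site genes and 635 kb for genes on no list. The part of length in these medians was not tested. For reading these counts, 39 of all 188 long genes (20.7%) were in A in WT.

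The difference between the matrices was then taken gene by gene, as the index in the KO-labelled map minus that in WT. It was above 0 in 130 of 185 genes (70.3%), with a median of 0.08 (25th to 75th percentile −0.02 to 0.21). Intergenic stretches moved by as much, with a median of 0.09 and 407 of 632 (64.4%) above 0, whereas windows tiled along the autosomes had a median of −0.01. The counting interval of the difference lay above 0 for 72 genes (38.9%, against 41.1% of stretches and 20.6% of tiled windows) and below 0 for 16 (8.65%, against 13% and 23.6%). The long genes were thus close to the stretches in these shares as well. The part of the lower depth, of the larger share of read pairs between chromosomes and of the feeder culture in these differences was not tested.

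A difference of at least 0.5 was reached by 3 long genes, all higher in the KO-labelled map (1.62%, against 3.01% of 632 stretches and 4.17% of 5255 tiled windows). None was lower by that much, against 1.11% of the stretches and 8.05% of the windows. This count of 0 of 185 allows a share of up to 1.62% at a limit of 3 counts (Wilson upper bound 2.03%), so the genes could not be told from the stretches. The windows are not matched to the bodies in length and their indices spread more widely. The 3 genes were Ptprm, a receptor tyrosine phosphatase of cell contacts, from −0.01 to 0.55, the adhesion-complex gene Lpp, from 0.04 to 0.58, and the zinc finger repressor gene Zbtb20, from −0.20 to 0.32, with counting intervals of the difference of 0.47 to 0.64, 0.40 to 0.69 and 0.40 to 0.64. Among the largest negative differences were those of Ctnna2, which encodes the neuronal alpha-catenin, from −0.16 to −0.53, and of the sorting receptor gene Sorcs1, from 0.15 to −0.20. Zbtb20 had 1 boundary inside in WT and none in the KO-labelled map, and 36 and 74 read pairs joined its start and end. Ctnna2 had 1 boundary inside in both. With separations of 5 to 10 bins, the counts were 7 higher and 1 lower, and from read pairs before correction 8 and 3. The shares of stretches and tiled windows were not taken under these settings, so these counts have no background.

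Next, it was asked whether the start and end of a long gene lie at a TAD boundary. They did so at shares close to those of all coding genes, which lay inside the Wilson intervals of the long genes at both ends and in both maps. The share over all scored autosomal bins, 11.2% in WT and 10.4% in the KO-labelled map, also lay inside these intervals, except at the start in the KO-labelled map. The insulation score is the log2 ratio of the contacts that cross a bin, in a square of 480 kb, to the chromosome mean, and a low score marks few crossing contacts. A boundary was called at a local minimum of this score, which gave 2178 boundaries on the autosomes in WT and 2009 in the KO-labelled map. A boundary lay within 1 bin of the start in 25 of 188 long genes in WT (13.3%, Wilson interval 9.17% to 18.9%) and in 15.6% of all autosomal coding genes. The KO-labelled map had one at 32 starts (17.0%, 12.3% to 23.0%) against 15.7%. At the end it was 27 genes in WT (14.4%) against 15.5%, and 24 in the KO-labelled map (12.8%) against 15.6%.

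The boundaries at starts were partly shared between the matrices. In 13 long genes (6.91%) the start was at a boundary in both, against 7.65% of all coding genes. These were Cntnap2, Macrod2, Csmd1, Csmd3, Wwox, Grid1, Bai3, Arhgap15, Pkhd1, Lrba, Pard3, Atrnl1 and B930007M17Rik, so the genes whose promoters are shown above, Cntnap2 and Macrod2, head this group by length. The deepest WT score among them was that of Pkhd1, a gene of primary cilia in the kidney, with −1.23 in WT and −1.08 in the KO-labelled map. Grid1, a glutamate receptor subunit of the delta type, had −1.002 and −1.81. The end was at a boundary in both matrices in 11 genes (5.85%, against 7.61%), among them Dcc, Cntn4 and Park2. No long gene had boundaries at both start and end in both matrices, a count of 0 of 188 that allows up to 1.60% at the same limit of 3 counts, and 2 of 2093 coding genes of 100 to 500 kb did (0.0956%).

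The scores at the ends of long genes lay above those of all coding genes and close to those at the edges of intergenic stretches. In WT the median score was −0.05 at the start and 0.03 at the end of long genes, against −0.37 at both for all coding genes. The KO-labelled map gave 0.05 and 0.08 against −0.64 and −0.63. Inside the body the score rose further, to a median of 0.29 at its centre in WT and 0.43 in the KO-labelled map, so that 137 of 185 genes in WT (74.1%) and 136 of 184 in the KO-labelled map (73.9%) had a lower score at the start than at the centre. The median rise from start to centre was 0.29 in WT and 0.37 in the KO-labelled map. The score was lower at the end than at the centre in 63.8% of genes in WT and 65.2% in the KO-labelled map, with a median rise of 0.26 and 0.39. Intergenic stretches had medians of 0.02 in WT and −0.002 in the KO-labelled map at their edges, and 0.27 and 0.49 at their centre. They rose from edge to centre by a median of 0.25 and 0.47. The lowest median around long gene starts in WT did not fall on the start itself but upstream of it, at −0.14 on the bin 240 kb before it. With a square of 960 kb the rise from start to centre was 0.14 in WT and 0.23 in the KO-labelled map, and boundaries lay at 9.04% and 6.38% of starts. The shares of all coding genes with this square were not taken.

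**Figure D4:**
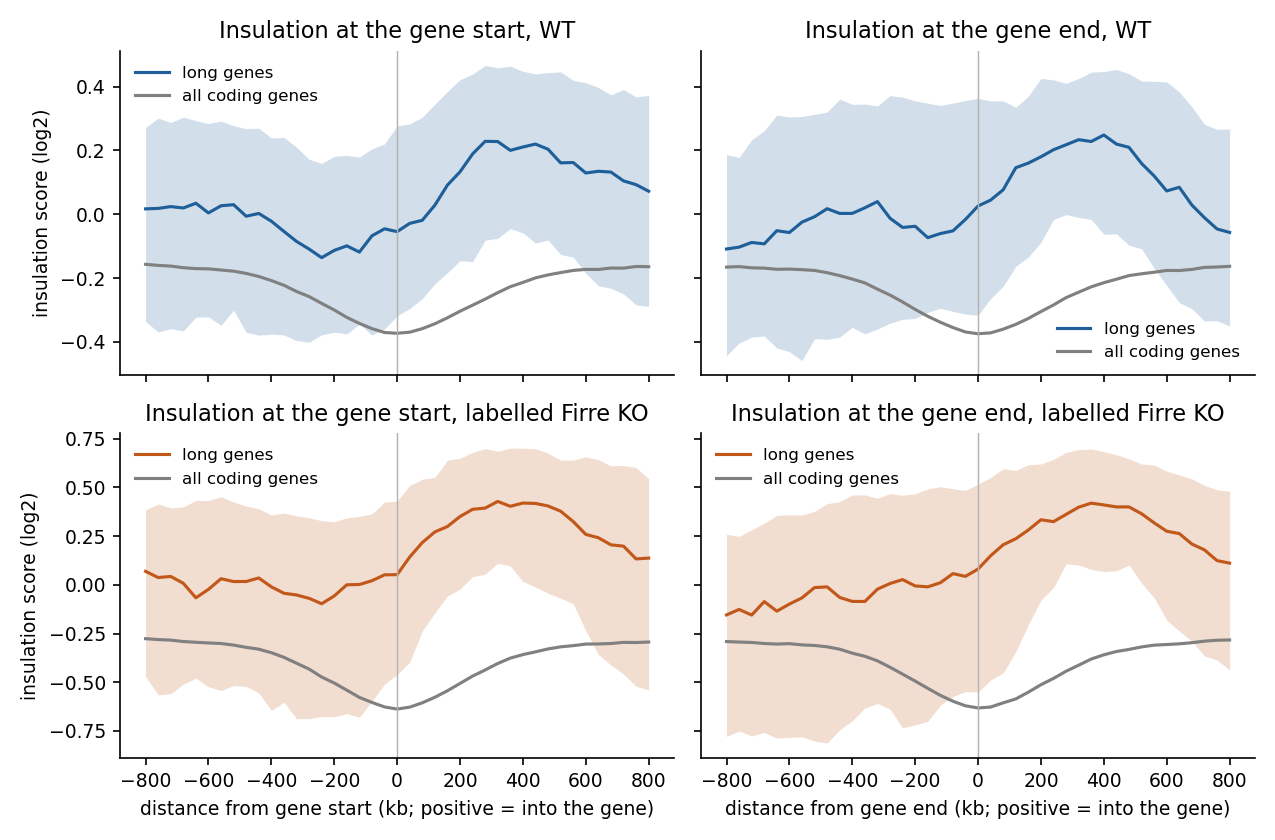
Median insulation score (log2) by distance from the start and from the end of 188 long genes, in colour with the 25th to 75th percentile shaded, and of all autosomal coding genes, in grey, in both matrices. Positive distances run in the direction of the body, and lie beyond it for most of all coding genes (median length 15.5 kb). Long genes rise to above 0.20 there in WT, while all coding genes have their lowest median, −0.37 in WT, at the start and at the end.

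The density of boundaries inside the bodies was close to that in intergenic stretches, with overlapping Poisson intervals. These intervals treat called boundaries as independent counts and leave out the error of calling them. There were 117 in WT, or 0.766 per Mb (exact Poisson interval 0.633 to 0.918), against 0.685 (0.623 to 0.751) in stretches and 0.932 over all autosomes. In the KO-labelled map there were 92, or 0.605 per Mb (0.488 to 0.742), against 0.558 in stretches and 0.864 over all autosomes. No boundary lay inside 89 of the 188 genes in WT (47.3%) and 110 in the KO-labelled map (58.5%). Along the direction of transcription, the first, central and last of 3 equal portions of the bodies held 44, 31 and 42 boundaries in WT and 33, 29 and 30 in the KO-labelled map, and the intervals of the 3 densities overlapped in each matrix.

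Finally, the compartments were compared. Very long genes lay mostly in the B compartment. In WT 39 of 188 were in A (20.7%, Wilson interval 15.6% to 27.1%), against 70.7% of all autosomal coding genes and 15.3% of intergenic stretches. The share was 72.0% in genes of up to 50 kb and 75.3% at 50 to 100 kb, and was lower in each longer class, with 66.4% at 100 to 200 kb and 48.3% at 200 to 500 kb. For contacts with windows more than 2 Mb away, from which the compartments themselves are drawn, the log2 ratio of contacts with A over contacts with B windows had a median of −0.54 in long genes and −0.71 in stretches, and was below 0 in 146 of 188 genes (77.7%). This preference for B was not kept in read pairs before correction, where the median of long genes was −0.018 in WT (95% interval of the median −0.17 to 0.11) and 0.14 in the KO-labelled map. Magi1, a scaffold gene of cell junctions, had one of the highest eigenvector values, 1.51. Csmd1 had −1.27 and Nrxn3 −1.05. The genes in A had a higher index inside the body, with a median of 0.20 (n = 38) against 0.004 in B (n = 148), and stretches in A and B had 0.24 and 0.04. By the WT compartments, the KO-labelled map gave 0.30 for genes in A and 0.09 in B, and 0.46 and 0.09 for stretches. Windows tiled along the autosomes did not share this gap, with −0.02 in A and −0.04 in B in WT. In the KO-labelled map they had −0.07 in A and −0.02 in B.

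In the KO-labelled map the eigenvector that followed gene density best was not usable on all chromosomes, since it put more than 80% of the windows in A on 6 of 19. By that rule 84 long genes (44.7%) were in A, against 73.9% of all coding genes and 47.9% of stretches. With the first eigenvector on every chromosome it was 49 genes (26.1%, 20.3% to 32.8%), against 61.4% of all coding genes and 22.4% of stretches. Set beside the WT compartments chosen by gene density, these calls were the same for 141 of the 188 long genes (75%) and for 80.05% of all coding genes. By these calls most long genes were in B in both maps, so many would be shared even if unrelated, and these shares have no common baseline. Across long genes the first eigenvectors of both maps had a Pearson r of 0.53 and a Spearman rho of 0.48. The first eigenvector followed gene density unevenly in the KO-labelled map, with a Spearman rho between 0.079 and 0.55 over the 19 autosomes (WT 0.40 to 0.69), so A and B are weakly defined on some of them. With the A and B windows of WT used for both, the preference of long genes for A over B had a median of −0.30 in the KO-labelled map and −0.54 in WT, and that of stretches −0.40 and −0.71. These windows were called from the WT contacts themselves, and with the first eigenvector of each map the order was the other way, with −0.63 in the KO-labelled map and −0.58 in WT. By the rule of gene density, read pairs before correction put 41.0% of long genes in A in WT and 79.8% in the KO-labelled map. The shares of all coding genes, stretches and windows in A were not taken from these read pairs. These values therefore do not show where long genes lie relative to other sequence.

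**Figure D5:**
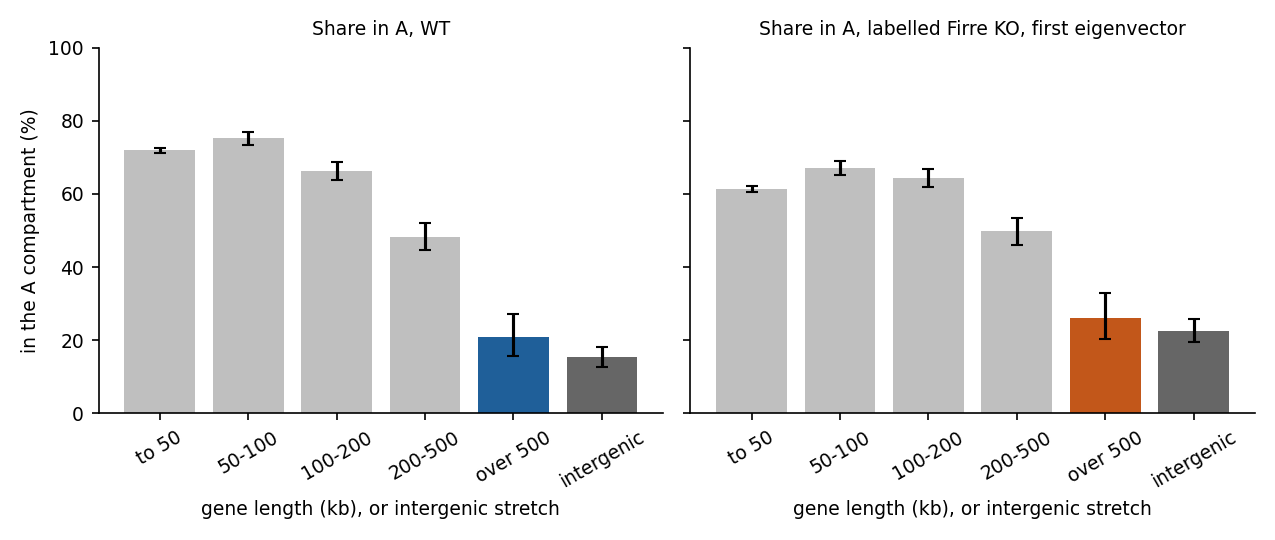
Share (%) of autosomal coding genes in the A compartment by gene length, and of intergenic stretches, in WT and in the KO-labelled map (the first eigenvector on each chromosome, which on some follows gene density weakly), with 95% Wilson intervals. Genes over 500 kb, in colour, lie at 20.7% and 26.1%, below the other length classes in both matrices.

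Across the 186 long genes with an index in WT, the index went with GC content (Pearson r = 0.32, Spearman rho = 0.41) and with the eigenvector (0.36 and 0.34), and less with gene length (−0.12 and −0.24) and the density of HindIII sites (−0.15 and −0.16). Its Pearson r with the read pairs counted was 0.11 and its Spearman rho 0.27, and in the KO-labelled map these were 0.18 and 0.42. Between the matrices, the index of 185 genes had an r of 0.76 and the score at the start 0.83, where 5255 tiled windows had an r of 0.75 for the index. These genes share chromosomes, libraries and the correction for coverage, and the coefficients are descriptions across genes, not tests.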

How the data were processed

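In situ Hi-C of male mESCs, with HindIII, was deposited as 1 matrix per genotype, pooled from 2 libraries. Per the labels the authors used HiC-Pro 2.7.8 and mm9. The authors deposited a contact signal for pairs of 40 kb bins, after iterative correction, which sets every kept bin to the same total and so removes coverage differences. The read pairs behind each value were recovered, with 100% of entries within 0.05 of a whole number, giving 54168778 autosomal pairs within chromosomes in WT and 29222889 in the KO-labelled map.

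Genes came from GENCODE vM1. Contact indices used separations of 2 to 10 bins, at least 80% kept bins and gamma intervals. Insulation used interquartile means, smoothing over 160 kb, a difference between the means of 320 kb on each side and boundary strength above 0. Compartments used 200 kb windows and, of 3 eigenvectors, the one closest to gene density in Spearman correlation. Python 3.11.15, numpy 2.4.6, scipy 1.17.1, numba 0.67.0 and statsmodels 0.14.6 were used. The code was tested on simulated data.

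The long genes, gene lists and tests were chosen with earlier results of these data known. Genes were named as the 10 longest, the 3 highest and 3 lowest WT indices, the 3 largest differences in each direction, genes with boundaries at both ends in both matrices, and list examples. Genes beyond this rule were named after their values were seen. Some items that the rule names are not reported here. Each genotype is 1 matrix, so no significance test was made. Alternatives changed the correction, separations, expected value, stretches, members, squares, boundary distance, strength, windows and eigenvector.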

Additional observations from a re-analysis of the deposited data

How the results depend on the processing

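No paired analysis was possible because the libraries of each genotype were pooled into 1 matrix. Of 126 values recomputed, 90 stayed within the interval of the reported value (counts within 1.5 times), 35 moved beyond it and 1 was labelled as changed in sign. That label was given only where the reported interval excluded 0. It left out the median index of genes minus that of stretches, reported as −0.02 in WT and −0.01 in the KO-labelled map. This difference turned positive in both maps with read pairs before correction. With intergenic bins free of any gene it was also positive in both, 0.01 in WT. Some of the 90 could not move by construction, as named below. Apart from the first eigenvector, the counts and shares below were taken for the long genes alone. Those of stretches, tiled windows and all coding genes under the same settings were not. Read pairs before correction gave a median index of long genes above that of stretches by 0.51 in WT and 0.53 in the KO-labelled map, a rise from end to centre of 0.12 in WT, A shares of 41.0% and 79.8%, preferences for A over B of −0.018 in WT and, changed in sign, 0.14 in the KO-labelled map, and 8 genes higher and 3 lower by 0.5 or more. Separations of 5 to 10 bins gave 7 higher and 1 lower, and an expected value over all autosomes 1 lower. With intergenic bins free of any gene, long genes were 0.088 above stretches in the KO-labelled map. A square of 240 kb gave a rise from end to centre of 0.10 in WT and 1.04 and 0.832 boundaries per Mb. A square of 960 kb gave rises of 0.14 from the start and 0.077 from the end in WT and 0.23 from the start in the KO-labelled map, boundaries at 9.04% of starts and 9.04% of ends in WT and at 6.38% and 4.26% in the KO-labelled map, and 0.399 and 0.217 per Mb. Boundaries in the exact same bin lay at 3.19% of starts in both and at 4.26% of ends in WT and 5.32% in the KO-labelled map. Boundaries within 2 bins lay at 25.5% of starts and 20.7% of ends in WT and at 24.5% and 19.7% in the KO-labelled map, all by construction of the distance. In the KO-labelled map the A share was 26.1% and the preference −0.63 with the first eigenvector, and the 20.7% with the WT windows, an alternative chosen after seeing the data, is the WT share by construction, since no contact of the KO-labelled map enters it. The causes of the other shifts were not tested. Leaving out the 3 records with 5 or more other coding genes, and calling boundaries with 160 kb on each side, both also chosen after seeing the data, moved no value beyond its interval. The span of 160 kb does not enter the insulation score, so the rises from start and end to centre could not move under it. The WT values with the WT windows are likewise the reported ones by construction. Depth limits the start-to-end contacts of the longest genes, where few read pairs were counted.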
